A study of Mus musculus with 3 samples.

Results

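RNA-rich and RNA-poor naive CD4+ T cells were the 175 cells with the most and the 175 cells with the fewest cellular transcripts per spike-in molecule, out of 697 single cells on 3 plates. For each cell the sum of its mouse transcript counts was divided by the sum of its ERCC counts, the synthetic RNAs added to the wells before reverse transcription. Within each plate, cells at or above the 75th percentile of that ratio were called RNA-rich and cells at or below the 25th RNA-poor, which gave 43 and 43 cells on plate 1, 51 and 51 on plate 2 and 81 and 81 on plate 3. The measured counts themselves chose the cells, so their counts, spike-in levels and ratios are described here without a test. All cells came from C57BL/6 mice, 8 to 12 weeks old, with males and females pooled, and, with no treatment but the fresh sort itself, were taken from spleen and lymph nodes. Flow sorting had taken live singlets with surface TCRb, CD4, CD62L and CD5, over the whole range of CD5, and gated out CD8, CD25 and CD44. Transcripts were counted by SORT-seq, a plate version of CEL-Seq2 in which a poly-T primer with a well barcode and a unique molecular identifier (UMI) starts each copy. Whether each plate had its own animals is not given. The p-values thus set differences between classes only against their variation from plate to plate, which may be technical.

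A naive T cell is a small resting lymphocyte that has not met its antigen. It is known for a low RNA content, a thin cytoplasm and restrained protein synthesis, and it multiplies its RNA, ribosomes and mitochondria when its receptor is triggered. CD5, the surface protein by which the study spread its cells, is known to track how strongly a naive T cell sees self peptide. Because wells are meant to receive equal spike-in, UMIs per spike-in molecule serve as a relative measure of the RNA recovered from a cell. RNA held by the cell and RNA released and captured from it cannot be told apart by this measure.

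The median RNA-poor cell held 1529 UMIs on plate 1, 2249 on plate 2 and 1930 on plate 3, and the median RNA-rich cell 7022, 8687 and 6585. Median spike-in molecules went the other way, from 1104, 1058 and 1412 in RNA-poor to 934, 883 and 1025 in RNA-rich wells. The medians of the ratio were 1.34, 2.36 and 1.34 in RNA-poor and 7.50, 9.27 and 6.11 in RNA-rich cells, folds of 5.60, 3.92 and 4.55. Most of that fold thus lay in the cells' own UMIs, with median folds of 4.59, 3.86 and 3.41, and a smaller piece in the spike-in, with folds of 0.846, 0.834 and 0.726. The ratio had no gap at the thresholds: the last RNA-poor cell and the next one above it stood at 1.99 and 2.01 on plate 1, 3.39 and 3.43 on plate 2, and 1.87 and 1.88 on plate 3. At the upper threshold the last cell outside and the first RNA-rich cell stood at 5.77 and 5.83, 7.82 and 7.84, and 5.04 and 5.06. Both classes were thus the ends of one continuous range.

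**Figure D1:**
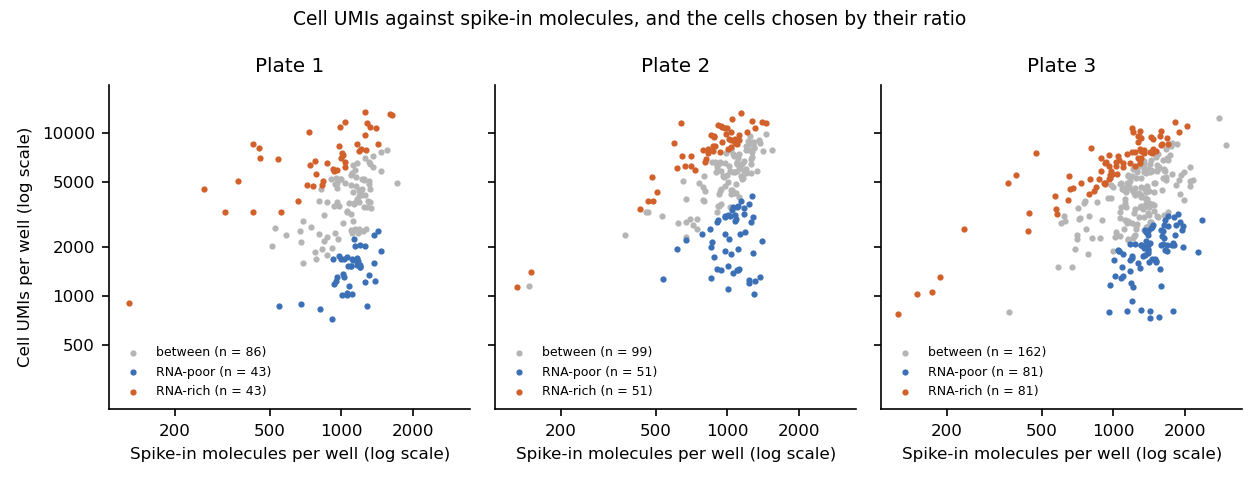
UMIs (vertical, log axis) against spike-in molecules (horizontal, log axis) for each of the 697 cells on its plate, coloured by class. RNA-rich and RNA-poor cells separate mainly along the vertical axis, and the wells with the fewest spike-in molecules are mostly RNA-rich.

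Some RNA-rich wells were distinguished by little spike-in. Of the 40 wells with under 50% of their plate's median spike-in, 29 were RNA-rich and 0 RNA-poor. The first column of wells held 30 cells, 17 of them RNA-rich and 4 RNA-poor; on plate 1 it had a median of 453 spike-in molecules and 8 RNA-rich cells of 10. On plate 3 the left side of the plate held 53 RNA-rich and 27 RNA-poor cells and the right side 28 and 54. The shares of single spike-ins in the spike-in total, RNA-rich over RNA-poor, ran on the log2 scale from -0.28 to 0.61, from -0.18 to 0.39 and from -0.82 to 0.52 over the 18, 18 and 24 spike-ins with at least 200 molecules. No well was listed for more than 1 of the 697 cells, and whether an RNA-rich well held more than 1 cell was not tested.

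To ask which transcripts take a larger or smaller share of the RNA, and not merely more UMIs, each cell was thinned at random to 900 UMIs, which 163 RNA-poor and 173 RNA-rich cells reached. Thinned cells were summed by plate and class, and edgeR's quasi-likelihood test compared the classes within plates. Few shares passed the test. Of 1108 genes tested, 24 passed an adjusted p of 0.05, which is 2.17% of those tested, with 7 higher in RNA-rich cells (0.632%) and 17 lower (1.53%), and 120 genes had an unadjusted p under 0.05. The higher genes were Mir5109, Malat1, Eef1g, Tln1, Tbc1d10c, Ppp2ca and Pgk1. The lower genes included Kcnq1ot1 and 6 transcripts that go with it, Gm20300 and 4930470H14Rik, together with the ribosomal protein genes Rps7, Rpl39 and Rps29, the mitochondrial mtNd3, and Cd3e, Ptma and Ndufa1. All 24 had the same sign in all 3 plates, but they were picked by small p on these same sums. Their shared sign is thus no separate evidence. Of these 24, 13 were also called in another random draw of the thinning and in a fit without thinning, and 9 of the 13 were called as well without each plate in turn. The median log2 difference over all genes tested was -0.03. Without the wells of low spike-in, Kcnq1ot1 stood at -1.90, Malat1 at 0.95 and Mir5109 at 1.52, and without the first well column at -1.64, 1.01 and 1.26, all past the threshold.

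**Figure D2:**
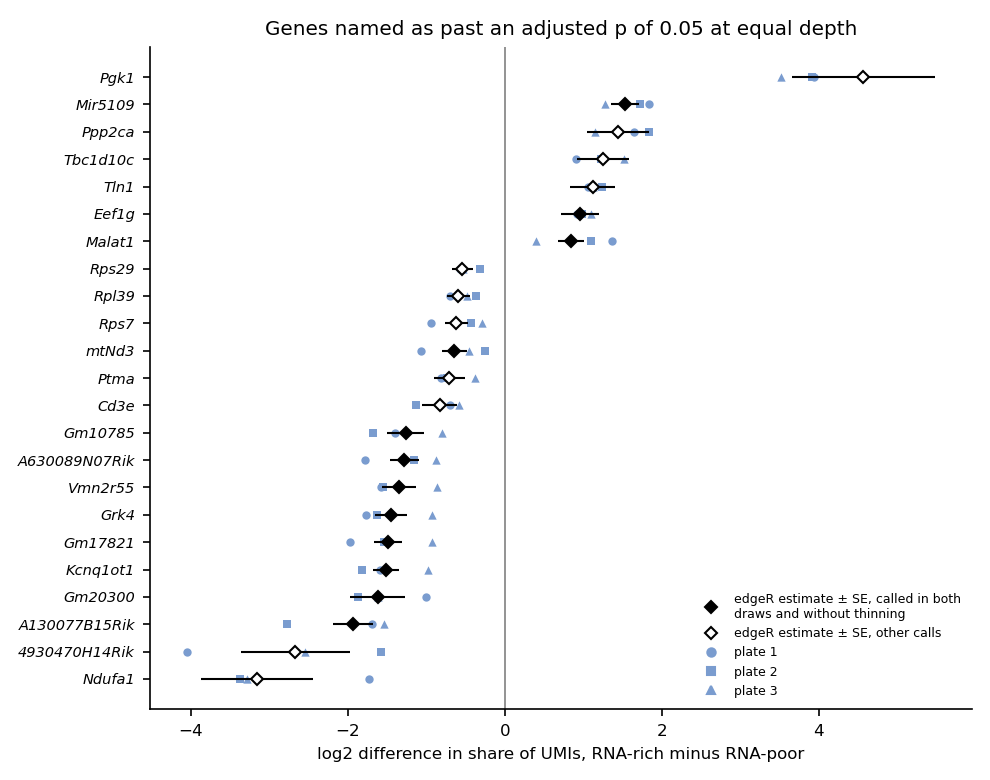
Genes past the threshold that are reported here (23 of the 24), with the fitted log2 difference RNA-rich minus RNA-poor on the horizontal axis (diamonds, bars 1 standard error) and the value of each plate as points. Filled diamonds mark the genes called in both thinning draws and without thinning; Kcnq1ot1 and its companions lie left of 0 on every plate and Mir5109 and Malat1 right of it.

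The clearest difference was in Kcnq1ot1, the long non-coding RNA transcribed antisense within the imprinted Kcnq1 gene (mm10 chr7:143203458-143296549, minus strand). Its 6 companions in these cells were A130077B15Rik, a long intergenic non-coding RNA, Gm17821, annotated as a processed pseudogene, Gm10785, an antisense transcript, A630089N07Rik, Vmn2r55, a vomeronasal receptor gene, and Grk4, a receptor kinase gene. These 7 were grouped from earlier results on the same cells, so their movement together is no independent evidence. Some of these genes also share sequence. In the GENCODE transcripts, Kcnq1ot1 shares 92 overlapping windows of 31 bases with A630089N07Rik, 42 with A130077B15Rik and 28 with Grk4. A longer shared run holds many such windows: the 42 with A130077B15Rik lie in 5 runs. Reads from such a run could be counted for either gene, which was not tested. With Gm20300, described after the 7, Kcnq1ot1 shares 13 such windows, 0 of them on the same strand. No source at hand says if the counting used strand. The longest run that Kcnq1ot1 has in common with A130077B15Rik on the same strand is 49 bases long, and a further run is 39 bases long. Both are shown as examples, from 5 such runs, of where the counting could confuse the pair. The capitals mark the shared bases, with 12 bases of Kcnq1ot1 on either side, at chr7:143221105-143221177 and chr7:143221207-143221269.
Kcnq1ot1 first run: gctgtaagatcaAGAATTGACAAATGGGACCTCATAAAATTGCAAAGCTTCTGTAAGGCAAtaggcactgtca
Kcnq1ot1 second run: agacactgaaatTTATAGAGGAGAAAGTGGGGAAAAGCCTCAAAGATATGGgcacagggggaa
No shared window of 31 bases was found between Kcnq1ot1 and Gm17821, Gm10785 or Vmn2r55.

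Kcnq1ot1 made up 159, 122 and 152 of every 10000 thinned UMIs in RNA-poor cells of plates 1, 2 and 3, and 52.4, 34.4 and 76.7 in RNA-rich cells. Every RNA-poor sum thus lay above every RNA-rich sum, and the fitted share was 2.86-fold higher in RNA-poor cells (log2 -1.52, SE 0.16, adjusted p = 1.11e-07). Gm17821 followed with 97.1, 81.9 and 90.7 per 10000 UMIs in RNA-poor and 24.6, 28.1 and 47.6 in RNA-rich cells (log2 -1.49, SE 0.18). A130077B15Rik had 11.4, 11.1 and 15.02 against 3.44, 1.53 and 5.14 (log2 -1.94, SE 0.25). All 7 of the 7 fell in RNA-rich cells, with log2 differences from -1.94 to -1.26 and a largest adjusted p of 0.000934. Gm20300 (chr10:30603195-30606634), a long non-coding RNA, shares stretches with Kcnq1ot1 on the opposite strand and fell as well, with 4.39, 3.49 and 5.26 per 10000 UMIs in RNA-poor and 2.12, 0.871 and 1.67 in RNA-rich cells. It was 3.08-fold higher in RNA-poor cells (log2 -1.62, SE 0.35, adjusted p = 0.0047), but did not pass without plate 3 (log2 -1.50, adjusted p = 0.28).

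Together the 7 transcripts took 3.93%, 3.19% and 3.74% of the summed thinned UMIs of RNA-poor cells and 1.19%, 1.03% and 1.93% of those of RNA-rich cells. Single cells varied far more within a class than the sums did: the middle cell had 2.67%, 2% and 2.56% in the RNA-poor class and 0.778%, 0.889% and 0.889% in the RNA-rich class, while single cells reached 19.4% and 45.9%. The highest cell was an RNA-rich cell of plate 3 with 4238 of its 9566 UMIs in these transcripts. Without it the plate 3 RNA-rich share was 1.37%, and the share in RNA-poor cells was 2.73-fold higher there instead of 1.94-fold.

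The number of these transcripts per cell, before thinning, rose little beside that of transcripts such as Actb. The median cell of the RNA-poor, middle and RNA-rich classes held 34, 53.5 and 55 UMIs of the 7 transcripts on plate 1, 45, 51 and 61 on plate 2 and 44, 52 and 56 on plate 3. For Actb, the cytoskeletal beta-actin, the same medians were 6, 20.5 and 36 on plate 1, 12, 28 and 49 on plate 2 and 9, 23.5 and 33 on plate 3. Per spike-in molecule, the 7 transcripts rose 1.81-, 1.18- and 2.82-fold from RNA-poor to RNA-rich cells (1.78-fold on plate 3 without the highest cell), against 6.13-, 4.32- and 4.77-fold for all UMIs. These unthinned values share their counts with the ratio that chose the cells and are given as a description.

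**Figure D3:**
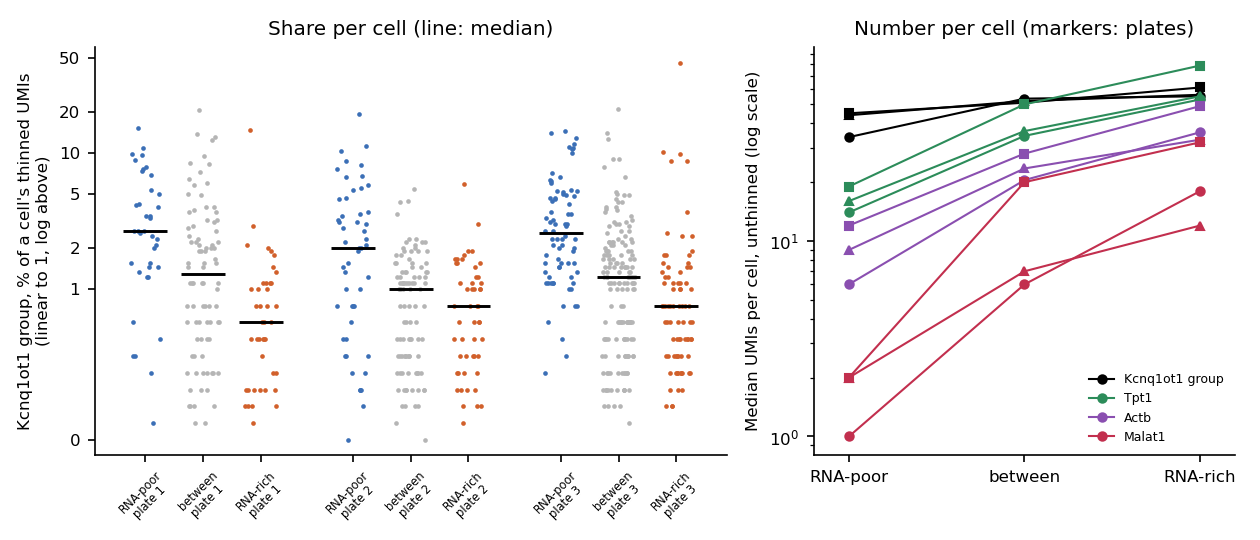
Left, the percent of thinned UMIs in the 7 transcripts of the Kcnq1ot1 group for each cell by class and plate, with the class median as a line. Right, median unthinned UMIs per cell (log axis) of the 7 transcripts, Tpt1, Actb and Malat1 across the 3 classes, a marker for each plate; the line of the 7 transcripts is much flatter than the others.

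All 7 passed when cells were ranked on a random part of their UMIs and tested on the rest (log2 -1.58 to -1.04). They also passed in cells of the study's Middle CD5 class alone (-1.86 to -1.37) and without the highest cell (-2.19 to -1.39). With the 7, Rn45s and the mitochondrial genes all left out of the ratio, the 7 passed as well (-2.78 to -1.65). Leaving the 7 out by itself ranks cells rich in them lower, so part of that larger difference can be built in. When cells were ranked by spike-in alone, all 7 were below 0 (-0.74 to -0.32) and 1 of 7 passed, Grk4. Within the study's CD5 classes their share was higher in RNA-poor cells in 8 of 9 combinations of class and plate. The exception was CD5 High on plate 3, with 2.65% in RNA-poor and 4.03% in RNA-rich cells, and there the RNA-rich value was 1.57% without the highest cell.

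Malat1, a long non-coding RNA kept in the nucleus (chr19:5795690-5802672), moved in the opposite direction. It had 11.7, 18.5 and 16.5 of every 10000 thinned UMIs in RNA-poor cells and 30.4, 39.7 and 21.8 in RNA-rich cells, a 1.79-fold rise with no overlap between classes (log2 0.84, SE 0.17, adjusted p = 0.00181). Without plate 2 the difference was 0.71 with an adjusted p of 0.094, and it no longer passed. Nor did it pass with plates unpaired or with cells ranked by spike-in alone (log2 0.01, adjusted p = 0.99). A Malat1 UMI was seen in 60.7% of thinned RNA-poor and 83.2% of thinned RNA-rich cells. Of 13 genes tested on a list named for nuclear-retained and long non-coding RNAs, 1 rose and 7 fell, with a median log2 of -1.26, against 0.632% and 1.53% of all genes. The 7 that fell are Kcnq1ot1 and its companions, picked from these cells, and they include protein-coding genes such as Grk4 and the pseudogene Gm17821.

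Mir5109, the locus of a microRNA precursor, had the smallest p of the genes that rose. Its counts were 6.14, 12.0 and 7.21 per 10000 thinned UMIs in RNA-poor cells and 22.2, 39.7 and 17.5 in RNA-rich cells, 2.89-fold higher (log2 1.53, SE 0.17, adjusted p = 2.4e-07). A poly-T-primed library of this kind does not measure mature microRNA, so these counts stand for longer transcripts assigned to the locus. Across the thinned cells of a plate Mir5109 moved with Rn45s, the 45S ribosomal RNA precursor, with a Spearman's rho of 0.39, 0.55 and 0.50 over 166, 201 and 315 cells that share depth and library. Rn45s itself had 168, 195 and 217 per 10000 UMIs in RNA-poor and 224, 636 and 184 in RNA-rich cells. It was thus far higher in the RNA-rich cells of plate 2, lower in those of plate 3, and did not pass in the main fit (log2 0.55, SE 0.20, adjusted p = 0.220). Rn45s passed under 13 of 26 alternatives, among them the other draw, with log2 differences from -0.05 to 1.01, and without plate 2 it stood at -0.01 (adjusted p = 0.99).

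Transcripts of the mitochondrial genome took a slightly lower share in RNA-rich cells on every plate. Their summed share was 17.1%, 13.7% and 15.5% of UMIs in RNA-poor and 15.3%, 12.9% and 14.5% in RNA-rich cells, lower in 3 of 3 plates (mean log2 -0.11, SD 0.038, n = 3, exact sign-flip permutation p = 0.25, the smallest that 3 plates allow). Of 14 mitochondrial genes tested, 0 rose and 1 fell, against 0.632% and 1.53% of all genes. The one that fell was mtNd3, a subunit of respiratory complex I, with 38.3, 24.0 and 41.4 per 10000 UMIs in RNA-poor and 18.3, 20.04 and 30.1 in RNA-rich cells (log2 -0.64, SE 0.16, adjusted p = 0.025); it did not pass without plate 1 (log2 -0.38, adjusted p = 0.37) or without plate 3 (adjusted p = 0.22). mtCo1, the catalytic subunit of cytochrome oxidase, was the counterpart, with 143, 145 and 130 against 193, 206 and 171 per 10000 UMIs and no overlap between the classes, but its difference did not pass (log2 0.36, SE 0.13, adjusted p = 0.198). Of 12 mitochondrial protein genes, 4 had a positive and 8 a negative difference, so mitochondrial transcripts did not share a direction. Nuclear genes of the respiratory chain had a median log2 of -0.20 over 29 tested, with 0 rising and 1 falling, Ndufa1.

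Ribosomal protein mRNAs, a growth-linked class, had no common direction over the plates: they took 20.6%, 19.7% and 17.6% in RNA-poor and 17.1%, 20.5% and 18.2% in RNA-rich cells (mean log2 -0.06, SD 0.19, n = 3, exact permutation p = 1.0). Of 73 tested, 0 rose and 3 fell, against 0.632% and 1.53% of all genes tested, with a median log2 of -0.08. Rps7 had 73.7, 56.9 and 54.5 per 10000 UMIs in RNA-poor and 38.4, 42.3 and 44.6 in RNA-rich cells (log2 -0.62, SE 0.15, adjusted p = 0.016). Rpl39 and Rps29 fell by 0.59 and 0.54 on the log2 scale, and none of these 3 passed without thinning. Rps7 also did not pass without the first well column (log2 -0.28, adjusted p = 0.48), without plate 1 (log2 -0.35, adjusted p = 0.36) or without plate 3 (adjusted p = 0.076). Rpl39 and Rps29 did not pass with any 1 plate left out, with adjusted p from 0.073 to 0.28 and from 0.077 to 0.38. Within the family the difference ran with the length of the longest annotated coding transcript, which need not be the one expressed. Of the 73 genes, those up to the median length of 937 bases had a median log2 of -0.19 and the longer ones 0.06. Spearman's rho was 0.42 across genes, which share the same libraries. Without thinning rho was 0.34 over 78 genes, and with ranking and test on separate UMIs 0.23 over 73. With cells ranked by spike-in alone it was -0.03 over 74 genes. Across 1039 protein-coding genes tested rho was 0.16. Nuclear respiratory chain genes had a rho of -0.002 (29 genes) and translation factors 0.03 (24 genes). For actin and integrin genes it was 0.13 (40 genes) and for mitochondrial protein genes 0.30 (12 genes).

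**Figure D4:**
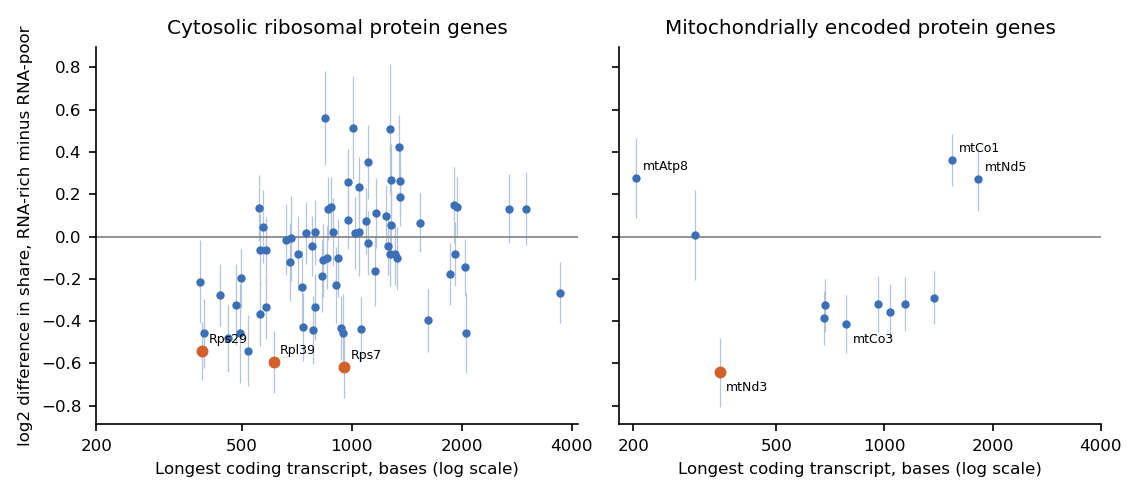
The log2 difference RNA-rich minus RNA-poor (vertical, bars 1 standard error) against the length of the longest coding transcript (horizontal) for ribosomal protein genes and for mitochondrial protein genes. Genes past the threshold are orange. Ribosomal protein genes with a short longest transcript lie lower than those with a long one.

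Of the protein synthesis machinery beyond the ribosome, Eef1g, a subunit of elongation factor 1, passed. It rose from 4.39, 3.49 and 3.15 to 8.47, 6.97 and 6.81 per 10000 UMIs (log2 0.95, SE 0.24, adjusted p = 0.025) and was called again in the other draw and without thinning. With plate 1, 2 or 3 left out its adjusted p was 0.057, 0.14 and 0.22. Eef1g was the only 1 of 24 translation factors tested to pass, against 2.17% of all genes, so this count is near the background. The median log2 of the 24 was 0.08. Eef2, elongation factor 2, had 7.31, 15.03 and 10.7 against 15.6, 19.2 and 16.2 per 10000 UMIs and did not pass (log2 0.55, SE 0.17, adjusted p = 0.124).

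Of the genes of T cell identity, Cd3e passed. Cd3e, a signalling chain of the T cell receptor complex, fell from 9.06, 6.32 and 8.56 to 5.56, 2.83 and 5.69 per 10000 UMIs (log2 -0.83, SE 0.23, adjusted p = 0.041), but it did not pass in the other draw (adjusted p = 0.28) or without thinning (adjusted p = 0.086). With plate 1, 2 or 3 left out its adjusted p was 0.24, 0.28 and 0.20. Of the other CD3 chains, Cd3g stood at -0.43 and Cd3d at 0.34, and neither passed. Cd3e was the only 1 of 15 genes tested for the receptor and its proximal signalling to pass, against 2.17% of all genes. The median log2 of the 15 was -0.01. Of 20 quiescence genes, 18 naive-state and homing genes, and 13 early genes induced by the receptor, 0 passed, with medians of -0.03, -0.07 and -0.08; with 2.17% of all genes called, counts this low are near the background. Klf2, which holds naive cells quiescent, and Btg1, an antiproliferative factor, stood at -0.44 and -0.36 with adjusted p of 0.544 and 0.522, and Myc was too rare to test, with 14 UMIs in RNA-poor and 9 in RNA-rich cells. Tcf7, a transcription factor of naive T cells, had 2.34, 2.61 and 2.40 against 5.56, 5.88 and 3.89 per 10000 UMIs, with no overlap but an adjusted p of 0.120. Over all lists, 16 of 24 gene lists held no gene past the threshold, among them ribosome biogenesis, splicing, chromatin regulators, MHC class I presentation, heat shock and cell cycle. These 6 lists had 6, 35, 16, 8, 9 and 4 genes tested. With 2.17% of all genes called, 0 calls in lists of this size is near the background and does not show that they are unchanged. Abundant transcripts such as Actb (log2 -0.04), Tpt1 (-0.11), Eef1a1 (-0.10) and B2m (-0.23) did not pass either. Cd5 mRNA (log2 -0.01) did not pass, but it was sparse, with a thinned UMI in 14.7% of RNA-poor and 17.9% of RNA-rich cells.

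Several of the smaller calls rested on few molecules and on the draw. Pgk1, a glycolytic enzyme, had 1 thinned UMI among 146700 in RNA-poor and 33 among 155700 in RNA-rich cells, a ratio of 31.1 with an exact 95% interval of 5.21 to 1265 that covers counting error only. In the other draw it had 15 and 20 UMIs (log2 0.40, adjusted p = 0.87), and without thinning 21 and 235 UMIs (log2 1.63, adjusted p = 0.017). Ndufa1, a complex I subunit, had a log2 difference of -3.16 in the main draw and -1.22 without thinning (adjusted p = 0.12). Tln1, the integrin-linked talin, from 2.34, 2.61 and 2.25 to 5.03, 6.32 and 5.00 per 10000 UMIs, Ppp2ca, a phosphatase subunit, and Tbc1d10c, a Ras and calcineurin regulator, also lost their calls in the other draw, with adjusted p of 0.32, 0.78 and 0.064, though Tbc1d10c passed without thinning (adjusted p = 0.024). The non-coding 4930470H14Rik had an adjusted p of 0.13 in the other draw and 0.001 without thinning.

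A second fit used all thinned cells in 4 bins of the ratio per plate and asked for a slope per doubling of UMIs per spike-in. Of 748 genes tested, 32 passed (4.28%), 10 rising (1.34%) and 22 falling (2.94%); 112 had an unadjusted p under 0.05, and 21 of the 32 were among the 24 above. It uses the same cells and is no second line of evidence. Kcnq1ot1 changed by -0.70 (SE 0.06, adjusted p = 6.67e-12) and Mir5109 by 0.63 (SE 0.07, adjusted p = 4.28e-09) on the log2 scale per doubling. Genes called by the slope alone included mtCo1 (0.16, adjusted p = 0.011), Eef2 (0.25, adjusted p = 0.021), Tcf7 (0.42, adjusted p = 0.034) and Rn45s (0.24, adjusted p = 0.044) upward, and the mitochondrial mtAtp6 (-0.16, adjusted p = 0.0067) downward. The share of the Kcnq1ot1 group fell at different points of the range: it was 3.93%, 3.61%, 1.57% and 1.19% from the lowest to the highest bin of plate 1, 3.19%, 1.44%, 0.819% and 1.03% on plate 2, and 3.74%, 2.27%, 1.54% and 1.93% on plate 3. The widest step was thus between the lowest bins on plates 2 and 3 and between the second and the third bin on plate 1. On plates 2 and 3 its lowest share was in the third bin. On plate 3 that order hung on 1 cell: without the highest cell the top bin stood at 1.37%, below the third. mtCo1 rose across the bins from 1.43% to 1.93%, from 1.45% to 2.06% and from 1.30% to 1.71%.

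**Figure D5:**
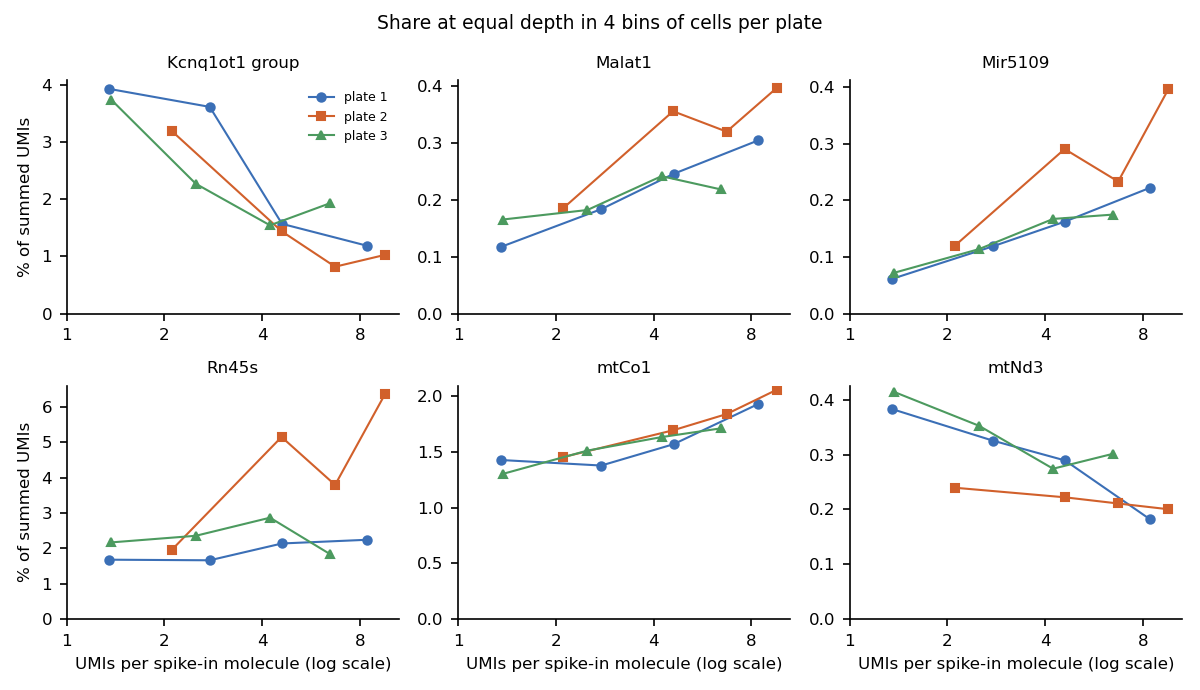
Share of thinned UMIs (vertical) in the 4 bins of each plate against UMIs per spike-in molecule (horizontal) for the Kcnq1ot1 group, Malat1, Mir5109, Rn45s, mtCo1 and mtNd3, with a line for each plate. The Kcnq1ot1 group is highest in the lowest bin of every plate, and the Rn45s line of plate 2 stands apart from the other plates.

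The number of calls depended on how cells were ranked. Ranked by total UMIs alone, 24 genes passed, 18 of them among the 24 above. Ranked by spike-in alone, from most to least, 1 gene passed. Mir5109 (log2 -0.01, adjusted p = 0.99) and Malat1 (log2 0.01, adjusted p = 0.99) then stood near 0. The difference between these rankings was not itself tested.

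At 900 UMIs the median RNA-rich cell showed 526.5, 480 and 525 genes and the median RNA-poor cell 440, 478 and 489, higher in 3 of 3 plates (mean log2 0.12, SD 0.13, n = 3, exact sign-flip permutation p = 0.25, the smallest possible). The plate 2 medians were nearly equal, and RNA-rich was the lower there at 450 UMIs, with ranking and test on separate UMIs and with ranking by spike-in alone. Without thinning the medians were 1913, 2011 and 1888 against 618, 857 and 839, so most of the raw gap in genes seen went with depth. CD5 fluorescence at the sort, which took no part in the ratio, had medians of 39060, 45904 and 46467 in RNA-rich and 56125, 57685 and 47180 in RNA-poor cells, lower in 3 of 3 plates (mean log2 -0.29, SD 0.25, n = 3, exact sign-flip permutation p = 0.25). The direction turned on 1 plate under each of 4 alternatives: on plate 1 in the top and bottom 10% (log2 0.04), on plate 3 in the Middle CD5 class (0.05) and without the 5% of cells of highest mitochondrial share (0.02), and on plate 2 with ranking by spike-in alone (0.17). Over all cells of a plate the ratio and CD5 were nearly unrelated, with a Spearman's rho of -0.08, -0.06 and -0.02. The share of cells in the study's CD5 High class was 37.2% (exact 95% interval 22.98 to 53.3), 29.4% (17.5 to 43.8) and 25.9% (16.8 to 36.9) in RNA-poor and 20.9% (10.04 to 36.04), 21.6% (11.3 to 35.3) and 22.2% (13.7 to 32.8) in RNA-rich cells. RNA-poor cells thus had the higher share on every plate. The intervals count cells within a plate, cover counting error only, and overlapped on every plate, which is no test of the difference.

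Both classes carried the markers of the sort, counted here after thinning unless said otherwise. CD4 T cell markers, 7 of 10 listed being in the table, summed to 47.5 to 56.2 per 10000 UMIs in RNA-poor and 41.4 to 55.4 in RNA-rich cells, and all 8 naive markers to 49.7 to 55.3 and 48.4 to 52.2. Activated or memory markers, 10 of 12 in the table, summed to 1.09 to 2.05 in RNA-poor and 2.08 to 2.83 in RNA-rich cells, with Ccl5, Cxcr3, S100a6 and Nkg7 at 0 in both. Lgals1 had a UMI in 3 of 163 RNA-poor and 15 of 173 RNA-rich cells, while Cd44, on which the sort gated, had one in 5 and 1 and Id2 in 8 and 7. Myeloid markers summed to 2.05 to 2.55 and 2.61 to 3.17, with Lyz1, Cd68, S100a8 and S100a9 at 0 in both, so both lists had slightly higher sums in RNA-rich cells. B cell markers ran from 0 to 1.20 in RNA-poor and from 0 to 3.61 in RNA-rich sums, both highest on plate 3. A UMI of these markers was seen in 8 of 163 RNA-poor and 8 of 173 RNA-rich cells. Cd8a was at 0 in 163 thinned RNA-poor and 173 thinned RNA-rich cells. That allows up to 1.84% and 1.73% of cells with a UMI at this depth (3 cells of each class). Cd8b1 had a UMI in 0 of 163 thinned RNA-poor and 3 of 173 thinned RNA-rich cells. Without thinning, Cd8b1 was seen in 2.86% of RNA-poor and 5.71% of the deeper RNA-rich cells, and Cd8a in 0% and 0.571%. The part of these other cell types in the gene differences was not tested.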

How the data were processed

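The table held the authors' deposited expected counts: UMI counts per gene and cell with a correction for UMI collisions, seen as values that are not whole (8.56% of those above 0). Alignment used BWA to mm10, per the submitters' processing notes; versions are not given in the sources used here. CD5 fluorescence was deposited by the authors as a signal per cell, with the study's CD5 class. Plates held 725552 to 1402881 UMIs, 3240917 in all, over 14355 genes, and the 84 spike-ins took 19.6% of all counts. Expected counts were rounded and thinned without replacement to 900 UMIs per cell, a depth that at least 90% of RNA-poor cells reached; 15 cells were shallower and left out, and 682 remained. Sums of 3 classes on 3 plates (9 sums) were fitted with edgeR 4.0.16 (R 4.3.3): TMM, filterByExpr, quasi-likelihood test, plate as block, Benjamini-Hochberg adjustment over all genes tested. The slope used 12 sums in the same way. All adjusted p-values come from these fits unless another tool is named. Plates pair the sums because each sum of a plate shares its library, and deviations of sums of 1 plate correlated at 0.135 to 0.511 (384 genes). Single values per plate were tested by an exact two-sided sign-flip permutation test.

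Genes named were up to 12 per direction of smallest p with the same sign on all plates, up to 4 per gene list, a fixed set of control genes and up to 6 more per direction for the slope. Of the genes past the threshold, 1 is not reported here. The cells, members and lists were chosen with earlier results of these data known. Positions, lengths and shared stretches are from GENCODE M21 on mm10. Alternatives were DESeq2 1.42.0, other scaling, filters, depths, draws and rankings, each plate left out, cells left out and no block. The scripts were tested on simulated data. No doublet caller was run. Python 3.11.15, numpy 2.4.6, pandas 2.3.3 and scipy 1.17.1 did the rest.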

Additional observations from a re-analysis of the deposited data

How the results depend on the processing

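Of 26 alternatives for the comparison of both classes, the count of 24 genes fell to 12 with DESeq2's Wald test, 15 in the Middle CD5 class alone, 11 with no replicate block (plates unpaired), 1 with cells ranked by spike-in alone, and 13 to 14 with 1 plate left out; the cause was not tested. Elsewhere it ran from 16 to 33: 31 in another draw (16 shared), 28 without thinning (16 shared), and, as alternatives chosen after seeing the data, 29 without wells of low spike-in (17 shared), 18 without the first well column (14 shared) and 21 without the highest cell of the Kcnq1ot1 group (20 shared). Scaling by library size alone moved the split from 7 higher and 17 lower to 11 and 16. For the slope, the count of 32 was 52 without thinning, 21 with ranking and test on separate UMIs, 25 with no replicate block and 17 to 27 with 1 plate left out.

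The mean log2 difference in genes detected was 1.34 without thinning. The mitochondrial share stood at -0.0638 without the 5% of cells of highest mitochondrial share. The ribosomal protein share ran from -0.11 to 0.0508 with 1 plate left out, the last without plate 1. Of 582 values of the 24 called genes under the alternatives, 396 kept the call and direction, 185 lost the call and 1 reversed, Mir5109 (-0.00544, ranking by spike-in alone). Of 2048 values of 91 other named genes, 56 passed and 202 changed sign without a call. Depth limits all of this: at 900 UMIs a cell, 1108 of 14355 genes could be tested.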
